A study of Mus musculus with 16 samples.

Results

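The genes described here mark the mural cells of blood vessels, the smooth muscle cells that ring arteries and the pericytes that sit on capillaries. They are 8 genes: Acta2, Tagln, Myh11 and Cnn1 of the contractile apparatus, and Rgs5, Pdgfrb, Cspg4 and Notch3 of signalling at the cell surface and behind it. Every probe set (a group of short probes reporting 1 transcript) annotated to exactly 1 of these symbols was taken, which gave 17 of 45101 probe sets on the array. The arrays hold RNA of the left ventricle after 28 days in 4 groups of 4: PPARalpha-/- mice with transverse aortic constriction (KO TAC), PPARalpha-/- mice with sham surgery (KO sham), wild-type mice with constriction (WT TAC) and wild-type mice with sham surgery (WT sham). The constriction narrows the aorta, so that the ventricle pumps against a raised pressure, and PPARalpha is a nuclear receptor that drives genes of fatty acid use. The comparisons ask how the heart's transcripts depend on PPARalpha with and without a lasting load. The labels give neither strain, age nor sex, and do not say whether the 4 arrays of a group come from separate animals, so p-values here reflect array-to-array spread within groups that may be technical rather than biological. The labels name no cell type in which the gene is deleted, and the RNA is that of the whole ventricle.

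Smooth muscle cells contract when myosin pulls on actin filaments, and their contractile genes are switched on together by serum response factor and its cofactor myocardin through CArG boxes in the promoters. Pericytes are recruited to capillaries by platelet-derived growth factor B from endothelial cells, which acts on the receptor PDGFRbeta, and Notch signals from endothelium keep mural cells differentiated. In pressure-loaded hearts, Acta2 and Tagln are also known to be expressed by activated fibroblasts, so these 2 genes are not proof of vessel wall. In RNA from whole tissue, fewer cells of a type and less RNA per cell cannot be told apart, and this holds for every level below.

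No smooth muscle or pericyte gene passed the test in any comparison. The limma fit covered 10916 genes, of which 7 were members; Cnn1 was too dim. In KO TAC against KO sham, 0 of the 7 were called, where 2.57% of all tested genes were. In WT TAC against WT sham 0 of 7 were called, against 0% of all genes. In KO sham against WT sham the member count was 0 of 7, against 0.742% of all genes, and in KO TAC against WT TAC it was again 0 of 7, against 2.46%. The difference between the TAC response of KO and that of WT was called for 0 of 7 members and 0% of all genes. Tested one by one, 0 of the 13 member probe sets bright enough to test were called in each of the 5, against 1.14%, 0%, 0.405%, 1.31% and 0% of 20967 probe sets. At an unadjusted p under 0.05, limma gave 2, 0, 1, 1 and 1 of the 7 genes, while 1742, 832, 930, 1794 and 1128 of the 10916 genes met that threshold. Groups of arrays that did not overlap were found for 1, 0, 0 and 1 of the 7 genes in the 4 pairwise comparisons, against 10.8%, 4.28%, 5.91% and 9.55% of all genes, and for 1, 0, 1 and 1 of the 13 probe sets, against 9.16%, 4.04%, 5.20% and 8.40%. These member counts are near the background shares.

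The arrays also set the size of change that could be seen. Over the 28 member values of the 4 pairwise comparisons, 24 intervals (95%) included 0, and the half-widths ran between 0.21 and 0.84 on the log2 scale. The largest difference was a log2 change of -0.61. A missed threshold therefore does not show that a gene stayed level: the Myh11 interval for KO TAC against WT TAC ran from -1.24 to 0.44, whereas that of Rgs5 for WT TAC against WT sham ran from -0.09 to 0.33.

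**Figure D1:**
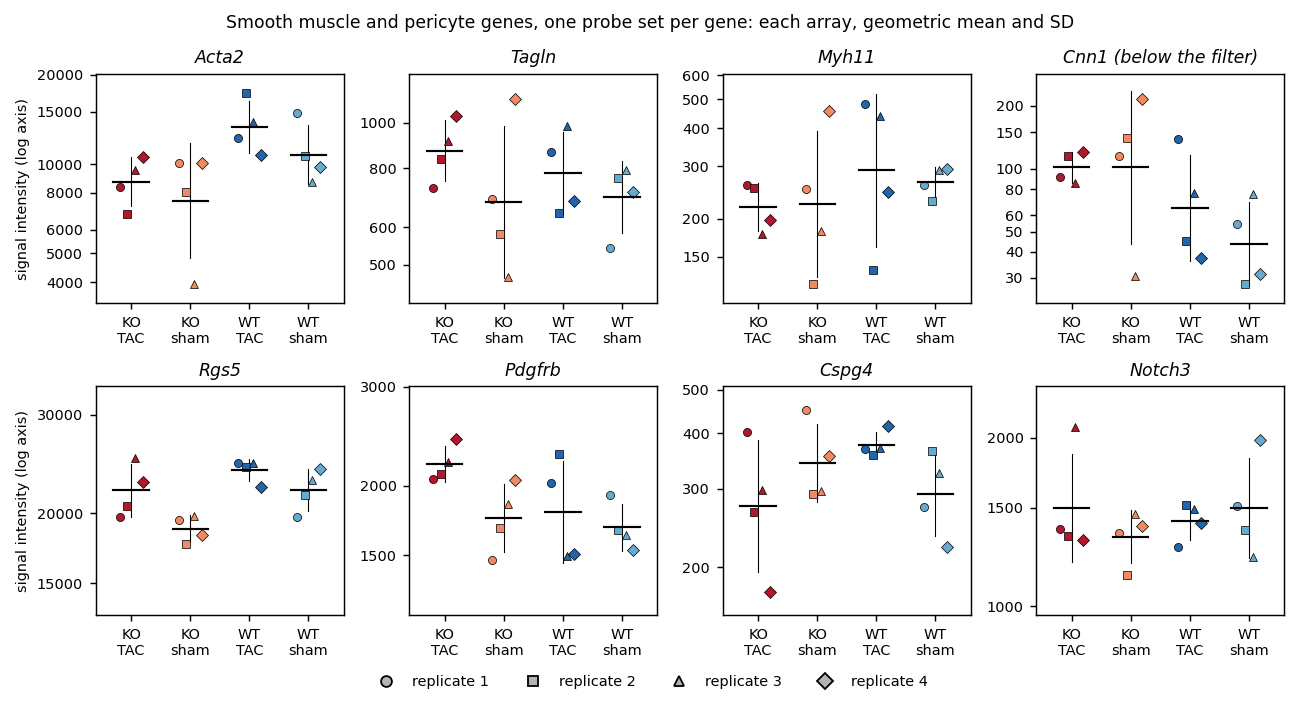
Signal intensity of each array (points, shape by replicate number) for the brightest probe set of each of the 8 genes, on log axes that differ between panels, with the geometric mean (bar) and SD on the log2 scale (line), 4 arrays per group. KO TAC and WT TAC arrays of Acta2 do not overlap, nor do KO TAC and KO sham arrays of Pdgfrb; Notch3, Tagln and Myh11 overlap in every pair of groups.

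**Figure D2:**
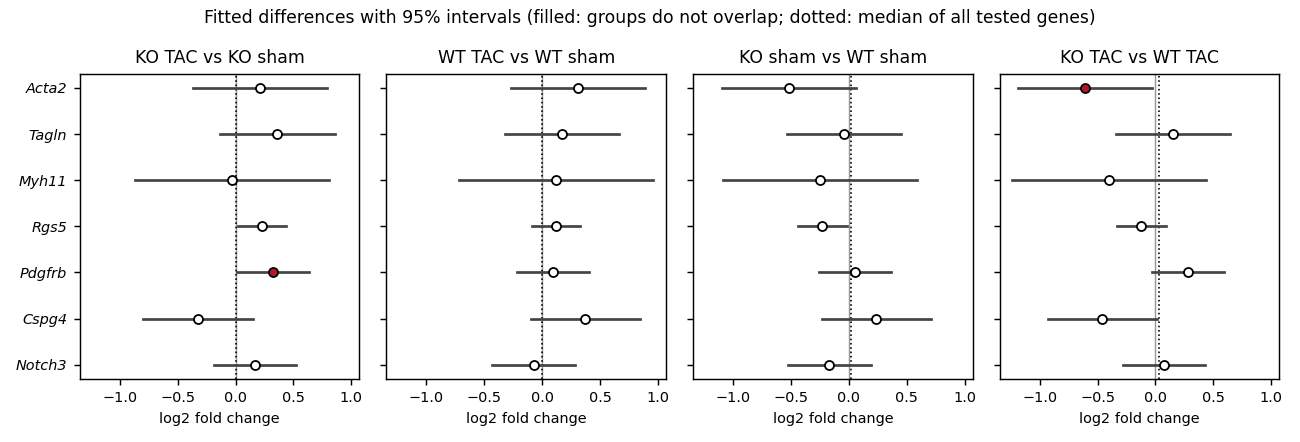
Fitted log2 fold change (x axis) with its 95% interval for the 7 tested genes in the 4 pairwise comparisons; filled points mark groups of arrays that do not overlap, and the dotted line is the median of all 10916 tested genes. Most intervals reach across 0 and none of the 28 differences passed the adjusted threshold.

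Acta2 encodes the actin of smooth muscle filaments and was among the brightest transcripts of the array (97.6th percentile of mean log2 signal among 18193 genes). Its probe set 1416454_s_at gave intensities of 8341, 6813, 9574 and 10582 in KO TAC and 12217, 17278, 13849 and 10722 in WT TAC. All KO TAC arrays lay below all WT TAC arrays, though the nearest pair stood only 10582 to 10722 apart. The fitted ratio of WT TAC over KO TAC was 1.53-fold and did not pass the test (KO TAC minus WT TAC, log2 change -0.61 ± 0.27, standard error; interval -1.19 to -0.03; adjusted p = 0.276 by limma).

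In KO sham the Acta2 arrays read 10091, 8035, 3955 and 10042, against 14810, 10672, 8704 and 9762 in WT sham. One KO sham array, replicate 3, was far below the rest, and the groups overlapped. The log2 difference was -0.52 ± 0.27 (adjusted p = 0.649). Between operations the Acta2 differences were 0.21 ± 0.27 for KO TAC against KO sham and 0.31 ± 0.27 for WT TAC against WT sham, and the 2 responses differed by -0.10 ± 0.38. The order of the group means was WT TAC, WT sham, KO TAC, KO sham. Neighbours in this order overlapped in each case, and the top and bottom groups did not.

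The suffix _s_at marks probes that can match more than 1 transcript, and actin genes are nearly identical over long stretches, so the Acta2 signal may include other actins. The other 2 Acta2 probe sets carry no such suffix, but both lay below the filter on dim signal. They read 10.8 to 101.3 for 1444105_at and 5.5 to 159.5 for 1456658_at over the 16 arrays, and 4 arrays of the second were at the floor of 11.9.

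The promoter of Acta2 is shown since contractile genes of smooth muscle are textbook targets of serum response factor; that of Cnn1 is shown beside it as the other contractile gene in the promoter table. Both run 5′ to 3′ from 250 bases before to 50 bases after the RefSeq start (GRCm38.p6), Acta2 at chr19:34255324-34255623 on the minus strand and Cnn1 at chr9:22099003-22099302 on the plus strand. Capitals mark matches to a CArG box with 1 base of its core changed and to CATTCC, the site read by TEAD factors, which lies on the opposite strand.
Acta2: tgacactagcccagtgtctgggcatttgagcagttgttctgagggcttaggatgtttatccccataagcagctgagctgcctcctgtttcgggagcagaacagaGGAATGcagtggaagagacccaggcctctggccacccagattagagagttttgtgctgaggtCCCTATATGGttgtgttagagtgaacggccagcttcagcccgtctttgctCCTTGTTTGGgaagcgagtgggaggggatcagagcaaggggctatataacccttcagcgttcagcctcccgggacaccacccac
Cnn1: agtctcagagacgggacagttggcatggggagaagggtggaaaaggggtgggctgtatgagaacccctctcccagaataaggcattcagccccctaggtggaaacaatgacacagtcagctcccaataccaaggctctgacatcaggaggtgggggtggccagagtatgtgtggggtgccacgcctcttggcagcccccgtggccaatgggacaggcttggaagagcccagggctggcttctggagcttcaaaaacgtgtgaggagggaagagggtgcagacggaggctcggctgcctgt
The exact CArG box, whose core holds no base other than adenine or thymine, was searched on both strands and had 0 exact matches in these 2 promoters and in the other 3 that the table held for members, Rgs5, Cspg4 and Notch3. It occurs in 1.63% of 32851 promoters of 300 bases. Allowing 1 other base in the core, a search chosen after the exact one gave no match, Acta2 held CCCTATATGG at -84 to -75 and CCTTGTTTGG at -34 to -25 from the start, and 8.5% of promoters held such a match. The Acta2 match to CATTCC lay at -146 to -141 and overlapped neither; 14.7% of promoters held one. The other 4 promoters, Cnn1 included, had no match to any of these, which says only that the letters are not in this window.

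Tagln encodes transgelin, an actin-bundling protein of smooth muscle. It ran between 726 and 1034 in KO TAC, 470 and 1123 in KO sham, 644 and 984 in WT TAC, and 541 and 795 in WT sham. All 4 groups overlapped, and KO sham held both the lowest and the highest of the 16 arrays. The largest Tagln difference was that of KO TAC against KO sham (0.36 ± 0.23, interval -0.13 to 0.85, adjusted p = 0.486); the other pairwise values lay between -0.04 and 0.17.

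Myh11 encodes the myosin heavy chain of smooth muscle, the most specific of the contractile markers. Its arrays read 179 to 260 in KO TAC, 122 to 456 in KO sham, 135 to 483 in WT TAC and 229 to 293 in WT sham. The spread was 3.74-fold within KO sham and 3.57-fold within WT TAC, more than any difference between group means. Its residual SD of 0.61 stood at the 91.7th percentile of tested genes, against a median of 0.25, and its pairwise differences lay between -0.40 ± 0.39 (KO TAC against WT TAC) and 0.12 ± 0.39 (WT TAC against WT sham). Its second probe set, 1418122_at, was at the floor on 7 arrays and gave no usable level.

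Cnn1 encodes calponin, which binds actin and damps the myosin motor. Its single probe set was below the filter, with 85.1 to 120.0 in KO TAC, 30.6 to 216.1 in KO sham, 37.6 to 138.8 in WT TAC and 28.1 to 75.9 in WT sham. KO TAC was the only group to lie wholly above WT sham. With all genes kept, KO sham against WT sham gave a log2 difference of 1.22 ± 0.55 (adjusted p = 0.722), on 4 KO sham arrays that differed among themselves by 7.06-fold.

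Rgs5 encodes a regulator of G-protein signalling that is a widely used pericyte marker, and its brightest probe set, 1417466_at, stood at the 98.8th percentile of genes. It read 19712, 20642, 25147 and 22796 in KO TAC and 19469, 17616, 19822 and 18280 in KO sham. In WT TAC it read 24649, 24186, 24568 and 22297, and in WT sham 19713, 21578, 22900 and 24031. KO sham was the lowest and least varied of the knockout groups; it overlapped KO TAC by 1 array and WT sham by its top array.

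Rgs5 gave 0.23 ± 0.10 for KO TAC against KO sham (adjusted p = 0.267) and -0.23 ± 0.10 for KO sham against WT sham (adjusted p = 0.511). It gave 0.12 ± 0.10 for WT TAC against WT sham and -0.12 ± 0.10 for KO TAC against WT TAC. These were the narrowest intervals of the 7 tested genes, and its residual SD of 0.11 stood at the 5.45th percentile. The WT TAC and KO sham arrays, top and bottom of the order, did not overlap.

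The 4 Rgs5 probe sets did not tell 1 story. Within groups, 1420941_at and 1420940_x_at moved together over the 16 arrays (r of the deviations from group means 0.92), as did 1417466_at and 1420942_s_at (0.67), while pairs across these sets gave -0.45 to 0.10. The _x_at suffix marks probes that may bind other sequences. In 1420941_at, KO TAC read 6068, 4239, 4300 and 5796 and WT TAC read 10317, 10265, 7833 and 5804. Replicate 4 of WT TAC lay inside the KO TAC range, and the other 3 WT TAC arrays lay above it.

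That probe set gave the smallest p of any member: -0.73 ± 0.18 for KO TAC against WT TAC (WT TAC above by 1.66-fold), with an adjusted p of 0.0742 over the 20967 probe sets. Its partner 1420940_x_at gave -0.56 ± 0.17 (adjusted p = 0.149), 1420942_s_at -0.21 ± 0.25 and 1417466_at -0.12 ± 0.10. Without WT TAC replicate 4 the value of 1420941_at was -0.90 and passed (adjusted p = 0.0252); over all such omissions it ran between -0.90 and -0.62, with adjusted p of 0.0252 to 0.215. That omission was chosen after the data were seen, and it removes the WT TAC array nearest the knockouts.

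The Rgs5 probe sets differed in how they varied with spike-in signal and with the 3′ to 5′ ratio of the actin control, a sign of RNA length. Over the 16 arrays, deviations of 1420941_at from group means had r = 0.43 with the mean log2 signal of 9 hybridisation spike-ins and r = -0.56 with the actin ratio. These values were 0.18 and -0.63 for 1420940_x_at, -0.71 and 0.35 for 1420942_s_at, and -0.26 and 0.09 for the brightest, 1417466_at. When spike-in signal was added to the fit, KO TAC against WT TAC gave -0.48 for 1420941_at (adjusted p = 0.635), and with KO TAC replicates 2 and 3 and WT TAC replicate 3 left out, the arrays of lowest and highest spike-in signal, it gave -0.52 (adjusted p = 0.562); both settings were added after the data were seen, and the part of these measures in the result was not tested. In KO sham against WT sham, 1420942_s_at read 5079, 3732, 5933 and 4265 in KO sham and 6724, 6210, 6251 and 8430 in WT sham, without overlap (log2 change -0.55 ± 0.25, adjusted p = 0.666).

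**Figure D3:**
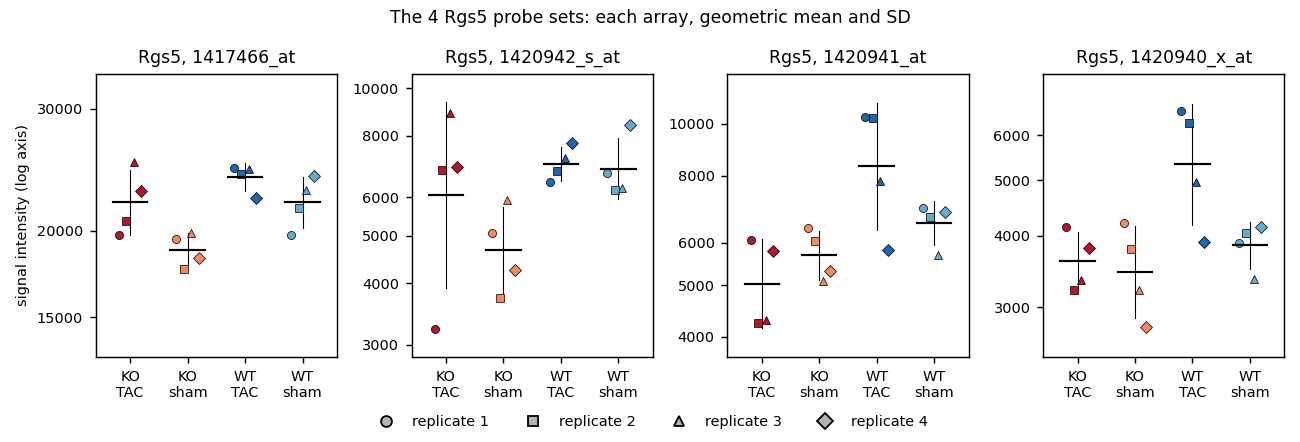
Signal intensity of each array (points, shape by replicate number) for the 4 Rgs5 probe sets in the 4 groups, log axes, with geometric mean (bar) and SD on the log2 scale (line). In 1420941_at and 1420940_x_at WT TAC holds the highest arrays and also 1 array among the knockouts, while 1417466_at varies little.

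Pdgfrb encodes the receptor for platelet-derived growth factor B, carried by pericytes, smooth muscle and fibroblasts. Its brighter probe set, 1436970_a_at, read 2053, 2093, 2203 and 2423 in KO TAC and 1473, 1681, 1855 and 2047 in KO sham. The groups did not overlap, by the narrow gap between 2053 and 2047. The fit gave 1.25-fold with KO TAC above (0.32 ± 0.15, interval 0.01 to 0.63, adjusted p = 0.293). In WT TAC it read 2018, 2278, 1495 and 1512 and in WT sham 1925, 1664, 1633 and 1534, and WT TAC split into 2 higher and 2 lower arrays.

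The Pdgfrb response was 0.09 ± 0.15 in WT, and the responses of the genotypes differed by 0.23 ± 0.21 (adjusted p = 0.743), so the KO value is not shown to differ from the WT one. KO TAC against WT TAC gave 0.29 ± 0.15 (adjusted p = 0.348) and KO sham against WT sham 0.06 ± 0.15. The second probe set, 1417148_at, gave 0.09 ± 0.17 for KO TAC against KO sham and 0.22 ± 0.17 for KO TAC against WT TAC. The 2 probe sets pointed the same way there with different sizes. They had opposite signs in the other pairwise comparisons, where 1417148_at gave -0.15 ± 0.17 (WT TAC against WT sham) and -0.01 ± 0.17 (KO sham against WT sham).

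Cspg4 encodes NG2, a proteoglycan of the pericyte surface. Its probe set 1450944_at read 403, 267, 298 and 176 in KO TAC, 450, 291, 297 and 356 in KO sham, 368, 356, 370 and 416 in WT TAC, and 273, 365, 325 and 222 in WT sham. WT TAC was tight and high, and KO TAC spread 2.28-fold and reached the lowest value of all. The TAC differences were -0.32 ± 0.22 in KO and 0.37 ± 0.22 in WT, and the difference between them was -0.70 ± 0.31 (interval -1.36 to -0.03, adjusted p = 0.474). KO TAC against WT TAC gave -0.46 ± 0.22 (adjusted p = 0.317). The dimmer probe set, 1423341_at, pointed the other way in both comparisons with KO TAC on top: it gave 0.61 ± 0.70 for KO TAC against KO sham and 0.42 ± 0.70 for KO TAC against WT TAC. It shared the sign of 1450944_at in WT TAC against WT sham (1.16 ± 0.70), in KO sham against WT sham (0.97 ± 0.70) and in the difference between responses (-0.55 ± 0.98), with WT sham replicate 4 at the floor.

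Notch3 encodes the Notch receptor of arterial smooth muscle and pericytes. It read 1313 to 2090 in KO TAC, 1139 to 1464 in KO sham, 1278 to 1514 in WT TAC and 1223 to 1981 in WT sham. The groups overlapped in every pair, and replicate 3 of KO TAC and replicate 4 of WT sham stood above all other arrays. Its differences were the smallest of the set, between -0.17 ± 0.17 (KO sham against WT sham) and 0.17 ± 0.17 (KO TAC against KO sham), with a lowest adjusted p of 0.691 in these 2. Its dimmer probe set, 1421964_at, gave 0.28 ± 0.27 for KO sham against WT sham and -0.01 ± 0.27 for KO TAC against KO sham. It gave 0.36 ± 0.27 for WT TAC against WT sham, where the brighter probe set gave -0.07 ± 0.17. For the difference between responses the values were -0.36 ± 0.38 and 0.24 ± 0.24. The signs of the dimmer and the brighter probe set were opposite in every comparison.

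As a list, the 7 tested genes had small positive medians after TAC. Their median was 0.21 in KO TAC against KO sham (5 of 7 positive; median of all genes 0.00) and 0.12 in WT TAC against WT sham (6 of 7 positive; all genes -0.00). It was -0.17 in KO sham against WT sham (2 of 7 positive; all genes 0.02) and -0.12 in KO TAC against WT TAC (3 of 7; all genes 0.03). The first and the fourth of these comparisons share the KO TAC arrays, and each group enters 2 of the 4. Centring each array on its median log2 value shifted all genes alike, their median becoming 0.13, -0.12, -0.03 and 0.22, so the list stood as before relative to it (0.21, 0.12, -0.19 and -0.15). With quantile normalization the list stood at 0.21, 0.13, -0.17 and -0.03 relative to all genes.

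The 7 tested genes did not vary as a block between arrays of 1 group. Over the 21 pairs of tested genes, correlations of deviations from group means ranged from -0.34 to 0.66, with a median of -0.00. The contractile pair Tagln and Myh11 had the highest (0.66), and Rgs5 and Notch3 reached 0.57. These correlations describe 16 arrays that share a scaling and, within a pair of genes, the same hybridisation, and no test was made of them. Some extremes fell on the same array. In KO sham, replicate 4 was the highest array for Tagln (1123), Myh11 (456) and the untested Cnn1 (216.1). Replicate 3 was the lowest for Acta2 (3955), Tagln (470) and Cnn1 (30.6). For Acta2 the highest was replicate 1 (10091), and for Myh11 the lowest was replicate 2 (122). KO sham replicate 4 also had the highest summed signal of 3 atrial markers (26325), whose part in these values was not tested.

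**Figure D4:**
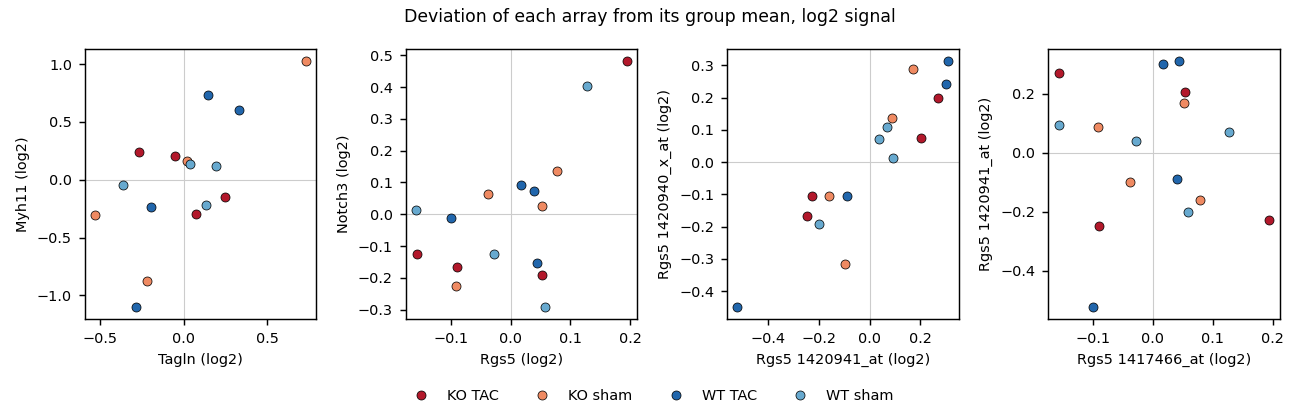
Deviation of each of the 16 arrays from its group mean on the log2 scale, for 2 pairs of genes (Tagln with Myh11, Rgs5 with Notch3) and 2 pairs of Rgs5 probe sets, coloured by group. The points follow a line for 1420941_at with 1420940_x_at and form a cloud for 1417466_at with 1420941_at.

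Genes outside the set with the most similar pattern were taken by Pearson r of log2 signal over the 16 arrays. For Acta2 they were Tppp3 (0.91), E530011L22Rik (0.83) and the metallothionein gene Mt1 (0.83). For Pdgfrb they were the collagen genes Col14a1 (0.87) and Col4a5 (0.84) and the endocytic receptor gene Lrp1 (0.84). For Rgs5 they were Lrrc18 (0.84), Eif5b (0.83) and Purb (0.81), for Myh11 Kcnj6 (0.83), Lhb (0.78) and Dhrs1 (0.78), and for Tagln Anp32b (0.79), Plaa (0.78) and Prelid3b (0.78). For Cspg4 they were Trav9d-3 (0.82), Tgm3 (0.81) and Tmem59l (0.80), and for Notch3 Prkci (0.75), Tcf15 (0.75) and Brd9 (0.74). No other member was among the 3 nearest genes of any member. Each gene was picked for the highest r among 10916 tested genes over 16 arrays. Such picking yields high values by itself, so they do not show shared regulation. No test was made of them. For deviations from group means, r of these pairs ran from 0.65 (Rgs5 with Lrrc18) to 0.85 (Myh11 with Kcnj6).

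Other genes linked to mural cells were read from lists, whose members can also be expressed by other cells of the ventricle. Of 25 tested contractile and adhesion genes of smooth muscle, 2 rose and 0 fell in KO TAC against KO sham (list median 0.12), where 2.57% of all genes were called. Actn1, the alpha-actinin that anchors actin at adhesions of non-striated cells, read 1019, 1218, 1040 and 1030 in KO TAC and 566, 606, 695 and 840 in KO sham (log2 change 0.68 ± 0.14, adjusted p = 0.0176). The groups did not overlap. Cald1, which encodes the actin- and myosin-binding protein caldesmon, rose by 0.52 ± 0.12 (adjusted p = 0.0329), with 2812 to 3291 in KO TAC and 1927 to 2390 in KO sham, also without overlap.

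Of 16 tested pericyte-associated genes 1 rose and 0 fell in that comparison. It was Des, which encodes desmin, an intermediate filament of pericytes and above all of cardiac muscle, at 15972 to 19509 in KO TAC and 11615 to 15375 in KO sham (0.48 ± 0.11, adjusted p = 0.0391). With all probe sets of each gene averaged, no call was left for these 3 (0.59 and adjusted p = 0.421 for Actn1, 0.19 and 0.771 for Cald1, 0.12 and 0.878 for Des). The other 3 Cald1 probe sets gave 0.51 ± 0.17, 0.50 ± 0.60 and -0.35 ± 0.28, and the other of Des -0.24 ± 0.41. Testing without a filter on dim genes ended them as well, and leaving out KO TAC replicate 2 or KO sham replicate 2 ended each of the 3 (adjusted p = 0.0563 to 0.106). Cald1 also lost its call without replicate 3 or 4 of either group, and Des without KO sham replicate 1 or 3 or KO TAC replicate 3 or 4 (adjusted p up to 0.104). The spike-in covariate ended the calls too (adjusted p = 0.0686 for Actn1, 0.125 for Cald1 and 0.0764 for Des), as did leaving out the 3 arrays of extreme spike-in signal (0.200, 0.125 and 0.229).

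In KO TAC against WT TAC, 1 of the 25 contractile genes rose, Tpm2, the beta-tropomyosin gene, where 2.46% of all genes were called. It read 2368, 3015, 2016 and 3033 in KO TAC and 1750, 1161, 1758 and 1226 in WT TAC, without overlap (0.83 ± 0.19, 1.78-fold, adjusted p = 0.0336). One of the 16 pericyte-associated genes fell, Abcc9, which encodes the sulfonylurea receptor SUR2 of potassium channels in cardiac muscle, smooth muscle and pericytes. It read 5891, 6286, 6648 and 6419 in KO TAC and 8026, 8529, 8681 and 9593 in WT TAC (-0.46 ± 0.09, adjusted p = 0.0124). Abcc9 lost its call in 5 of 22 alternatives. Its adjusted p was highest (0.257) when arrays were centred on their medians (-0.27, with the median of all genes then at 0.22). Tpm2 lost its call in 8 of 22, with the highest adjusted p (0.134) when only the compared arrays were fitted. Among these 8 were the omissions of KO TAC replicate 2, KO TAC replicate 4, WT TAC replicate 2 and WT TAC replicate 4 (adjusted p = 0.0854 to 0.116).

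None of the transcription factors, growth factors or Notch genes passed in these or in the other comparisons. For 12 tested transcription factors and cofactors of smooth muscle, the 2 smallest p in KO TAC against KO sham belonged to Gata6 (-0.54 ± 0.20, adjusted p = 0.175) and Foxo4 (-0.43 ± 0.16, adjusted p = 0.186), and in KO TAC against WT TAC to Tead1 (0.54 ± 0.16, adjusted p = 0.0917) and Gata6 (-0.55 ± 0.20, adjusted p = 0.173). For the 5 genes of PDGF ligands and the sister receptor they belonged to Pdgfra (0.50 ± 0.21, adjusted p = 0.252) and Pdgfb (0.30 ± 0.15, adjusted p = 0.332) in the first and Pdgfra (0.64 ± 0.21, adjusted p = 0.142) and Pdgfd (0.53 ± 0.20, adjusted p = 0.212) in the second. For 15 tested Notch ligands, receptors and targets they were the coactivator gene Maml1 (-0.89 ± 0.26, adjusted p = 0.0946) and the target Hey1 (-0.38 ± 0.15, adjusted p = 0.213), then Rbpj, the DNA-binding factor of the pathway (0.45 ± 0.14, adjusted p = 0.103), and Notch4 (0.45 ± 0.16, adjusted p = 0.189).

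The 5 mural lists held 0 called genes in WT TAC against WT sham, in KO sham against WT sham and in the difference between TAC responses. In WT TAC against WT sham the 2 smallest p of the contractile list were those of Tpm1 (0.35 ± 0.12, adjusted p = 0.585) and Kcnmb1 (0.39 ± 0.19), those of the pericyte list Gja4 (0.41 ± 0.15) and Ebf1 (-0.44 ± 0.17), and those of the transcription factors Elk1 (-0.84 ± 0.37) and Mrtfb (0.26 ± 0.18). The PDGF list had Pdgfa (-0.22 ± 0.29) and Pdgfra (-0.13 ± 0.21), and the Notch list Dll4 (0.45 ± 0.21) and Rbpj (-0.28 ± 0.14), in wild-type hearts. None of these 10 genes had an adjusted p under 0.585. Tpm1 read 75939 to 104047 in WT TAC and 60062 to 75199 in WT sham. That is the level of the cardiomyocyte marker Myh6 (82912 to 109169 and 67047 to 82291), so Tpm1 is no measure of smooth muscle here.

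In KO sham against WT sham the corresponding genes were Cald1 (-0.36 ± 0.12, adjusted p = 0.308) and Agtr1a (0.46 ± 0.17), Art3 (-0.55 ± 0.18, adjusted p = 0.288) and Colec11 (0.29 ± 0.14), Mrtfb (0.41 ± 0.18) and Srf (-0.29 ± 0.14), Pdgfc (0.44 ± 0.21) and Pdgfb (-0.30 ± 0.15), and Dll4 (0.49 ± 0.21) and Notch4 (0.34 ± 0.16). In the difference between TAC responses they were Cald1 (0.63 ± 0.17, adjusted p = 0.290) and Actn1 (0.68 ± 0.20, adjusted p = 0.322), Abcc9 (-0.31 ± 0.12) and Des (0.39 ± 0.16), Elk1 (1.34 ± 0.52) and Tead1 (0.56 ± 0.22), Pdgfra (0.63 ± 0.30) and Pdgfd (0.45 ± 0.29), and Rbpj (0.58 ± 0.19) and Maml1 (-0.91 ± 0.37). The responses of Actn1 and Cald1, called in KO, are therefore not shown to differ from those in WT.

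At an unadjusted p under 0.05, limma gave 9, 1, 2, 6 and 5 of the 25 contractile genes in KO TAC against KO sham, WT TAC against WT sham, KO sham against WT sham, KO TAC against WT TAC and the difference between responses. In the same order it gave 4, 1, 1, 6 and 4 of the 12 transcription factors and 3, 2, 1, 5 and 2 of the 16 pericyte-associated genes. It gave 1, 0, 1, 2 and 0 of the 5 PDGF genes and 3, 1, 1, 3 and 2 of the 15 Notch genes. Of all 10916 genes, 15.96%, 7.62%, 8.52%, 16.43% and 10.33% met that threshold.

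Markers of other cells were called only in the comparisons with KO TAC, in which 2.57% (against KO sham) and 2.46% (against WT TAC) of all genes were called. Of 5 tested markers of activated fibroblasts, 3 rose in KO TAC against KO sham (Postn 1.97 ± 0.20, Cilp 2.39 ± 0.29, Thbs4 1.07 ± 0.21) and 3 in KO TAC against WT TAC (Postn 1.04 ± 0.20, Cilp 1.27 ± 0.29, Comp 1.74 ± 0.44), with adjusted p between 0.000278 and 0.0490. Single omissions ended the calls of Thbs4 (KO TAC replicate 2), of Postn against WT TAC (WT TAC replicate 4), and of Cilp and Comp against WT TAC (6 of 8 arrays each). Dropping KO TAC replicates 2 and 3 and WT TAC replicate 3 together put Thbs4 at an adjusted p of 0.172. The same step put Cilp against WT TAC at 0.387. Adding the spike-in covariate put Comp against WT TAC at 0.313. Against KO sham, Postn and Cilp kept their calls in all 22 alternatives. The summed signal of that list ran between 8710 and 12537 in KO TAC, 2661 and 3340 in KO sham, 3946 and 5793 in WT TAC, and 2902 and 3766 in WT sham. KO TAC lay above all other groups, and WT TAC in turn lay above both sham groups without overlap. In WT TAC against WT sham 0 of the 5 were called and 4 of the 5 values were positive. An unadjusted p under 0.05 by limma was met there by 2 of the 5, all higher, against 7.62% of all genes. Groups did not overlap for 1 of the 5, against 4.28% of all genes. Of 8 fibroblast markers, Pdgfra among them, Col1a2 and Lum rose in both comparisons (1.34 ± 0.17 and 0.86 ± 0.11, then 1.04 ± 0.17 and 0.60 ± 0.11), with summed signal of the list at 50194 to 58144 in KO TAC, 41059 to 46636 in KO sham, 41373 to 55526 in WT TAC and 42288 to 43670 in WT sham. With probe sets averaged Col1a2 lost both calls (0.72 and adjusted p = 0.205, then 0.85 and 0.121), and against WT TAC it lost its call without the 3 spike-in arrays (adjusted p = 0.0672). Lum lost its call against WT TAC under both spike-in settings and with only those 8 arrays fitted (adjusted p = 0.0696 to 0.129).

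Of 7 macrophage markers, C1qb and C1qa rose in KO TAC against WT TAC (0.64 ± 0.10 and 0.48 ± 0.12; C1qa not without any of 7 of the 8 arrays). The sums were 18205 to 22364 in KO TAC, 17165 to 18325 in KO sham, 13417 to 16219 in WT TAC and 13457 to 15220 in WT sham. Both knockout groups thus lay above both wild-type groups, sham hearts included. In KO sham against WT sham 0 of the 7 were called, and 6 of the 7 values were positive. An unadjusted p under 0.05 by limma was met there by 3 of the 7, against 8.52% of all genes. Arrays of these sham groups did not overlap for 4 of the 7, against 5.91% of all genes. Of 7 endothelial and 7 cardiomyocyte markers 0 were called in any comparison. Cardiomyocyte sums were 372396 to 481744 in KO TAC, 449601 to 536719 in KO sham, 505323 to 688550 in WT TAC and 402343 to 486973 in WT sham, so WT TAC was the high group. In KO TAC against WT TAC all 7 cardiomyocyte markers had negative values with an unadjusted p under 0.05 by limma (16.43% of all genes met it). Of the 7, 6 did not overlap, against 9.55% of all genes. The median of the 7 was -0.37 in this comparison and -0.06 with quantile normalization, where 5 of 7 were negative. In WT TAC against WT sham 6 of the 7 were higher at that p and 5 did not overlap (7.62% and 4.28% of all genes). In KO TAC against KO sham all 7 were lower, 3 at that p and 2 without overlap (15.96% and 10.8% of all genes). All 7 were negative in the difference between TAC responses, 6 at that p (10.33% of all genes). All 7 passed the filter on dim genes, and the 3 atrial markers varied widely within groups (sums 753 to 5231 in KO TAC, 1322 to 26325 in KO sham, 254 to 2074 in WT TAC and 415 to 8129 in WT sham). Of the skeletal muscle, mesothelial and adipocyte lists, 1, 1 and 0 genes were bright enough to test and none was called.

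Several lists varied with single members between arrays of a group. In deviations from group means, Myh11 deviations had r = 0.64 with the mean of activated fibroblast markers and 0.56 with atrial markers, Pdgfrb had 0.63 with macrophage markers, Rgs5 had -0.57 with fibroblast markers and Acta2 had -0.56 with the other pericyte-associated genes, over 16 arrays. These are among the largest of the values of all tested members with all lists, and no test was made of them. Of similar size were Pdgfrb with the PDGF list (0.57) and Cspg4 with endothelial (0.55) and atrial markers (0.55). With the contractile and adhesion list r was 0.47 for Acta2, 0.49 for Tagln, 0.55 for Myh11 and 0.48 for Pdgfrb. It was 0.20 for Rgs5, 0.03 for Cspg4 and 0.15 for Notch3. The part of the cells marked by these lists in the values of Actn1, Cald1, Des, Tpm2, Abcc9 or the 8 genes was not tested.

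**Figure D5:**
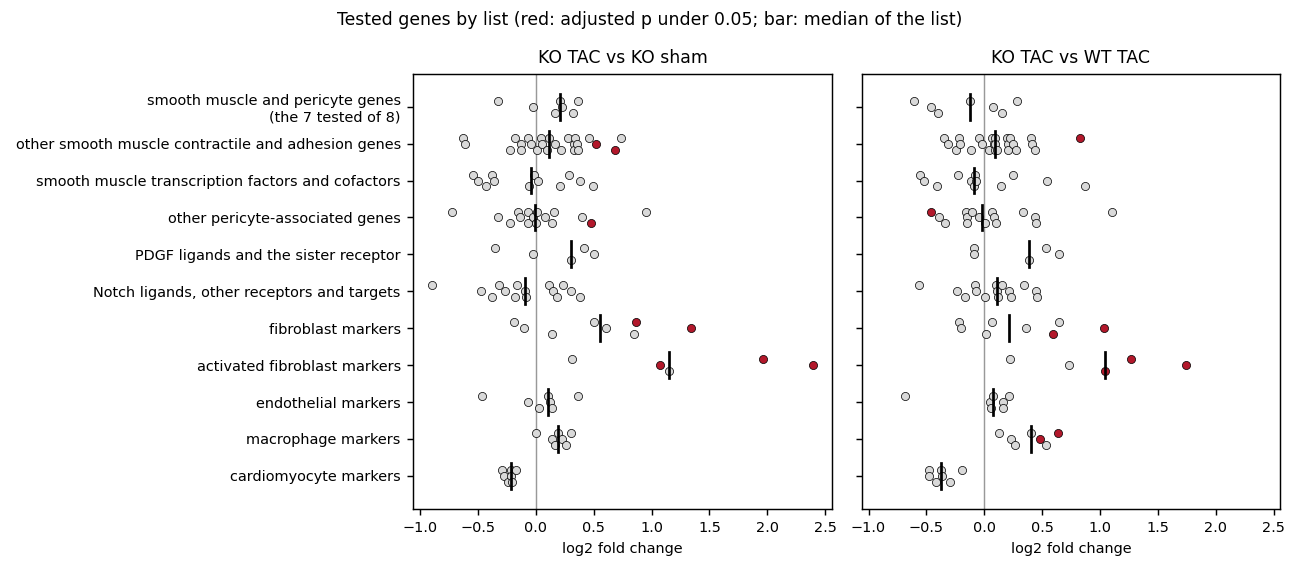
Log2 fold changes (x axis) of the tested genes of each list in KO TAC against KO sham and in KO TAC against WT TAC; red points passed an adjusted p under 0.05 and the bar is the median of the list. The smooth muscle and pericyte genes hold no red point, while 3 activated fibroblast markers are red in each comparison.

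Over all arrays, median signal lay between 108.3 and 163 and the mean correlation of an array with its own group between 0.940 and 0.969. Mean log2 spike-in signal was 12.00 to 12.68 in KO TAC and 12.40 to 12.90 in KO sham. It was 12.62 to 13.04 in WT TAC and 12.34 to 12.63 in WT sham. Adding it to the fit cut called genes from 280 to 125 (KO TAC against KO sham) and from 268 to 78 (KO TAC against WT TAC). Dropping KO TAC replicates 2 and 3 and WT TAC replicate 3 left 55 and 56. The cause of these lower counts was not tested. The actin 3′ to 5′ ratio was 1.18 to 1.36 in KO TAC and 1.52 to 1.75 in KO sham, without overlap. It was 1.28 to 1.53 in WT TAC and 1.47 to 1.56 in WT sham. The same ratio of the Gapdh control did not separate the groups. It was 0.765 to 0.789 in KO TAC, 0.738 to 0.769 in KO sham, 0.747 to 0.799 in WT TAC and 0.719 to 0.786 in WT sham. The part of these ratios in the comparisons was not tested. Ppara, the deleted gene, read 388 to 525 in KO TAC and 524 to 727 in KO sham, against 1385 to 2171 in WT TAC and 1546 to 2308 in WT sham, so every KO array lay below every WT array; whether its probes lie in the deleted stretch is not given in the sources used here. The number of arrays limits the precision of all values.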

How the data were processed

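Total RNA extracted with Trizol was biotin-labelled and hybridised to Affymetrix mouse arrays, per the labels' protocols. The authors deposited 1 linear signal intensity per probe set, for which the submitters' processing notes name GCOS 1.4; its settings are not given. Each array's trimmed mean is the same, so a change in many bright genes shifts all others.

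From these intensities, values under 11.9 (10th percentile of all values) were set to it and log2 was taken, without further normalization. Groups came from sample titles. Probe sets with 1 symbol in the array annotation were used (34945, of which 34741 matched RefSeq gene IDs), and a gene was its probe set with the highest mean. The dimmest 40% of 18193 genes were left out. Limma 3.58.1 (R 4.3.3) took all 16 arrays in a single model with a mean for each group; p-values are two-sided, adjusted by Benjamini-Hochberg over 10916 genes, and called under 0.05. Errors after ± are standard errors of that fit. The 13 of 17 member probe sets that passed the filter were also tested one by one. The steps were tested on simulated data. The members and the gene lists were chosen with earlier results of these data known. Named list genes are the called ones, up to 4 per list and comparison, or the 2 with the smallest p; marker lists of other cells are named by called genes only. Alternatives were other normalizations, floors, filters, probe set rules, moderation, array weights, spike-in adjustments, fewer arrays and a replicate block. Promoters are RefSeq's (GRCm38.p6).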

Additional observations from a re-analysis of the deposited data

Results flagged for a closer look

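Within groups of 4, some arrays stood farther from the others than Dixon's 95% limit allows. This was so in 5 of 68 groups of the 17 probe sets, where chance gives about 5%. Both Notch3 probe sets had one in KO TAC: replicate 3 was high at 2089.8 in 1421965_s_at, and replicate 2 was low at 222 in 1421964_at, so different arrays stood out. The other 3 lay in probe sets below the filter on dim signal: Acta2 1456658_at in WT sham replicate 3 (32.7), Myh11 1418122_at in KO sham replicate 1 (17.3) and Myh11 1418122_at in WT sham replicate 3 (28). In these 3 groups the other arrays were all set to the floor of 11.9, so the distance passes the limit by construction, and the count of 5 includes them. None of these groups gave a call.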

How the results depend on the processing

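The count of 0 members called held under each of the 23 alternatives of a pairwise comparison and the 30 of the difference between TAC responses, single-array omissions included (0 to 0). Over 799 member values from these alternatives, separate tests of all probe sets aside, 0 passed. Their lowest adjusted p was 0.121 (Rgs5, KO TAC against WT TAC). With all probe sets tested separately the lowest was 0.0742 (Rgs5 1420941_at, same comparison). Among single probe sets with 1 array left out, an alternative added later, Rgs5 1420941_at passed without WT TAC replicate 4 (adjusted p = 0.0252). Of the 35 member values, 15 kept their sign throughout, and 59 alternative values had the other sign without a call, median centring, which shifts all genes alike, among the settings. With replicate number as a block, the count was also 0 in every comparison, and the block ended the calls of Cald1 (adjusted p = 0.0680) and Tpm2 (0.0773). The labels do not say whether the numbers pair the arrays. Deviations from group means had r of -0.19 to 0.14 over 24 same-numbered pairs, 5 of them over 0.1, which cannot decide it. Applied to the genes of the other lists, the same alternatives were added after the data were seen: Cald1 kept its call in 8 of 22, Des in 11, Tpm2 in 14, Actn1 in 15 and Abcc9 in 17, with the same sign in all, and Postn in 22 (KO TAC against KO sham). The cause of the lost calls was not tested. The number of arrays, and for Cnn1 and 3 further probe sets the dim signal, limit what could be seen.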
